A study of Mus musculus with 8 samples.

Results

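The genes described here build and run the transport system of the primary cilium, and their transcripts were counted in C57 mice by poly(A) RNA sequencing of bulk brain tissue labelled PrL, the usual short form for prelimbic cortex. They were chosen by gene symbol: the intraflagellar transport (IFT) genes, the Bardet-Biedl syndrome (BBS) genes, and named partners among the small GTPases, motors and transition zone proteins. 43 of the 14765 genes in the count table matched. They fell into 13 genes of the IFT-B complex, 6 of IFT-A, 7 of the BBSome, 2 BBSome assembly factors, 3 small GTPases, 4 kinesin-2 subunits, 2 dynein-2 subunits and 6 transition zone genes. All 43 passed the filter on low counts. The 4 SNI libraries (SNI stands for spared nerve injury in pain research) were compared with 4 Sham libraries, the control group. The labels give the genotype of both groups as C57, give no age or time after surgery, and do not tie libraries to separate animals, so that p-values measure only how these libraries vary, and that variation may be technical.

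The primary cilium is a single, immotile antenna that projects from most neurons and glial cells. Proteins travel along its microtubules on IFT trains: kinesin-2 carries the trains outward with IFT-B, and dynein-2 carries them back with IFT-A. The BBSome is a coat that rides on the trains and moves membrane receptors out of the cilium, and the transition zone at the cilium's base acts as a gate. In cortical neurons the cilium holds G protein-coupled receptors such as the somatostatin receptor Sstr3, and it is the site where Hedgehog signals are processed. Motile cilia, which ependymal cells carry, use the same IFT machinery.

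Promoters of ciliary genes often carry the X-box, the paired site bound by RFX transcription factors, so the members' promoters were searched for it. RefSeq promoter windows (GRCm38.p6, 250 bases before to 50 after the start) were found for 38 of the 43 genes, in 42 windows. The X-box was searched on both strands with a spacer of up to 3 bases, and it occurred in 5 of the 42 windows (11.9%), against 1.57% of 14630 windows of the other genes in the count table and 1.53% of all 32817 windows. Most members' windows thus lack it, and the matches are shown because the motif was more frequent among the members than among the other genes. The capitals mark the X-box match in a stretch of 30 bases on the gene's strand.
Ift57, chr16:49699199-49699228, plus strand: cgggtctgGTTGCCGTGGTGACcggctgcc
Ift57, chr16:49699226-49699255, plus strand: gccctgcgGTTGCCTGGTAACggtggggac
Bbs1, chr19:4906605-4906634, minus strand: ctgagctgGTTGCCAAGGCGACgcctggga
Tctn1, chr5:122264411-122264440, minus strand: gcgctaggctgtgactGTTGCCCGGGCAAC
Tctn3, chr19:40612350-40612379, minus strand: tcccagcgGTTGCCAGGTAACgggaaccac
Tmem237, chr1:59120102-59120131, minus strand: tagtcagcGTTGCCATGGCGACgcctccgg

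All 6 of these matches begin with the letters GTTGCC. That core alone, on either strand and overlapping the X-box matches above, occurred in 18 of the 42 windows (42.9%), 1 for each of 18 genes, against 12.6% of windows of the other genes in the table and 12.5% of all windows. It was present in 5 of 11 IFT-B promoters, 2 of 5 IFT-A, 3 of 7 BBSome, 0 of 2 BBSome assembly, 1 of 3 small GTPase, 2 of 4 kinesin-2, 1 of 1 dynein-2 and 4 of 5 transition zone promoters. Kif3c and Ift88 are shown with the core in capitals as examples of promoters that hold it without an X-box match.
Kif3c, chr12:3364944-3364973, plus strand: ccgagaatggcgGTTGCCgagagaacacgc
Ift88, chr14:57424080-57424109, plus strand: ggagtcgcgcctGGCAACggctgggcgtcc

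In Ift88 the core lies on the opposite strand. The promoter window of Bbs2 held neither motif, which says only that these letters are not in that window. The members' windows had a median GC content of 59.7%, against 60.3% for the other genes of the table. GC exceeded 55% in 81.0% of the members' windows against 70.2% of the others. The median ratio of observed to expected CpG was 0.798 against 0.715. The part of base composition in the motif counts was not tested. The median log2 fold change between SNI and Sham was -0.02 over the 18 genes with the core and 0.08 over the 20 without it, given as a description.

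Libraries held 14735602 to 19602487 counts, of which 25199 to 38133 fell on the 43 genes. The tissue showed cortical markers, with Slc17a7, the vesicular glutamate transporter of cortical excitatory neurons, at 1137 to 1940 CPM (read counts relative to the library total, with totals scaled by the TMM method). Striatal markers (18 of 20 symbols in the table) summed to 647 to 991 CPM in Sham against 832 to 1554 CPM in SNI, highest in SNI replicates 2 and 4. Motile cilium and ependymal markers (40 of 49 symbols in the table) summed to 139 to 156 CPM in Sham against 165 to 213 CPM in SNI. Excitatory neuron markers (13 of 13) summed to 8527 to 9489 CPM in Sham against 6163 to 8212 CPM in SNI. By edgeR at an adjusted p under 0.05, 5 of 13 excitatory neuron markers and 1 of 16 genes listed as GABAergic neuron markers (Cck) fell. Gad1, Gad2 and Slc32a1 of the GABAergic list did not pass (log2 fold changes -0.21, 0.05 and -0.12). At this threshold 1 of 18 striatal and 2 of 5 choroid plexus markers rose, and 0 of 15 astrocyte markers passed. Among all tested genes 2.15% were higher and 2.87% lower. The striatal markers had a median log2 fold change of 0.82. At an unadjusted edgeR p under 0.05, 10 of the 18 were higher and 0 lower, against 21.1% of all tested genes in either direction. Astrocyte markers had a median of 0.11, from -0.21 (Aqp4) to 0.94 (Gfap, edgeR adjusted p = 0.188). Choroid plexus symbols were mostly absent (7 of 15 in the table). Every gene in the table has at least 1 count in every library, so a missing symbol may still have had reads in some libraries. Ttr and Clic6, which rose, were scarce, each with a Sham mean of 0.26 CPM. Kl, Enpp2 and Aqp1 did not pass (log2 fold changes 0.96, -0.09 and -0.91). Although the labels give both groups as C57, Cx3cr1, the fractalkine receptor gene of microglia, had 44.8 to 55.3 CPM in Sham and only 1.54 to 2.23 in SNI (log2 fold change -4.74, edgeR adjusted p = 2.41e-12). Of 16 microglia markers it was the only one that fell at an adjusted p under 0.05. Among the other markers Tmem119 and P2ry12 rose (0.48 and 0.59) and 13 did not pass, among them Fcrls, at 31.6 CPM in Sham against 13.8 in SNI (-1.19, edgeR adjusted p = 0.131), with every SNI value below every Sham value. A difference of genotype between the groups that the labels do not give cannot be told apart from the injury in any comparison here. The part of these shifts in the values that follow was not tested. In bulk tissue, fewer cells of a type and less RNA per cell cannot be told apart.

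None of the 43 genes changed at a false discovery rate (FDR) of 0.05. By edgeR's quasi-likelihood test 0 of 43 were higher and 0 lower, while 698 of 13911 tested genes (5.02%) passed, 299 higher (2.15%) and 399 lower (2.87%). Among the 11267 tested genes whose group means lay within the members' range of CPM, the share was also 5.02%. DESeq2 and limma likewise called 0 of the 43. At an unadjusted p under 0.05 there were 4 members, Bbs2 with a higher mean in SNI and Kif3c, Ift88 and Tctn3 with a lower mean, against 21.1% of all tested genes. The 4 SNI values lay all above or all below the 4 Sham values for 2 members, Bbs2 and Ift88, against 12.7% of all tested genes (5.64% above and 7.02% below).

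The estimated differences were small. The median log2 fold change over the members was 0.05, against 0.01 over all genes tested, with 27 positive and 16 negative values (52.2% of all tested genes were positive), and the extremes were -0.37 (Bbs12) and 0.32 (Bbs2). In 39 of the 43 (90.7%) the estimate was under 0.25 in size, against 72.6% of all tested genes and 79.5% of those in the members' CPM range. The 95% intervals of all 43 lay within 1 log2 unit of zero in both directions, and those of 35 lay within 0.5. The lowest bound was -0.83 (Bbs12, the scarcest member, whose interval ended at 0.10), and the highest was 0.54 (Arl13b, whose interval began at -0.14). A change of 2-fold in either direction thus lay outside the interval of each member.

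**Figure D1:**
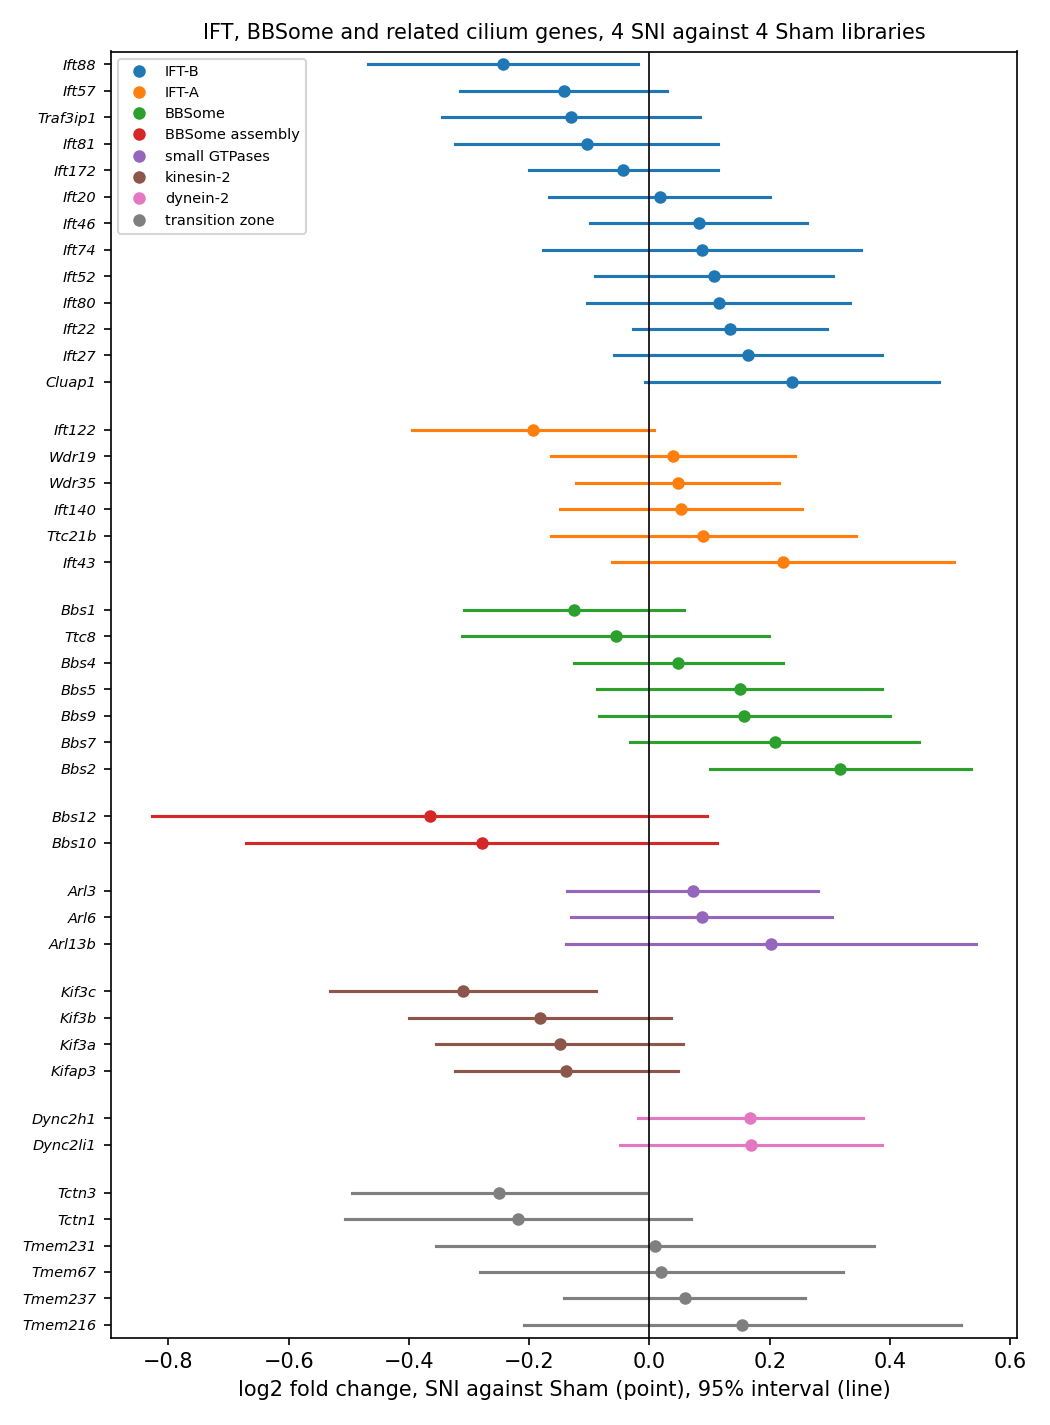
Log2 fold change of SNI against Sham for each of the 43 genes (point) with its 95% interval (line), grouped and coloured by role, with 4 libraries in each group. Points run from -0.37 to 0.32, all 4 kinesin-2 subunits sit left of zero and both dynein-2 subunits right of it, and 4 intervals do not cross zero.

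The IFT-B complex, the larger IFT train that travels with kinesin-2, gave 8 positive and 5 negative estimates among 13 genes, with a median of 0.08. Ift88, which encodes a core subunit whose loss blocks cilium assembly, had the smallest p of this complex. Its levels were 22.7, 20.1, 18.6 and 19.3 CPM in Sham replicates 1 to 4 and 16.05, 18.4, 15.8 and 17.8 CPM in SNI replicates 1 to 4. The highest SNI value lay just below the lowest Sham value. Means were 20.2 ± 1.82 and 17.0 ± 1.29 CPM (SD, n = 4 per group), or a log2 fold change of -0.24 ± 0.106 (SE) with an edgeR adjusted p of 0.200, which did not pass. Under 17 other settings its estimate stayed between -0.34 and -0.18. In GRCm38 the gene spans 57424062 to 57517936 on chromosome 14, and its exons share 67 bases with the antisense gene Ift88os, which cannot be told apart where counting ignores strand.

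At the other end of this complex, Cluap1 (IFT38), another subunit that cilia need for assembly, had 20.9 ± 2.56 CPM in Sham against 24.6 ± 3.08 CPM in SNI (SD, n = 4 per group). The log2 fold change of 0.24 had an edgeR adjusted p of 0.252. SNI replicate 2, at 29.1 CPM, stood above the other SNI libraries (22.5 to 23.8), and the estimate fell to 0.14 without it. The exons of Cluap1 overlap other annotated genes over up to 40.8% of their length, so its level is uncertain. Ift74, which pairs with Ift81 to bind tubulin cargo, showed the same library more strongly, at 29.9 CPM in SNI replicate 2 against 20.5 to 21.2 in the other SNI libraries and 19.7 to 23.0 in Sham. Its partner Ift81 had 43.6 CPM in that library, within the Sham range of 39.4 to 44.3, and 30.6 CPM in SNI replicate 3.

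The remaining IFT-B genes had estimates from -0.14 to 0.16. The small GTPases of the complex, Ift22 and Ift27, had 0.13 and 0.16. Ift27 links the train to the BBSome, and its values of 16.9 to 20.2 CPM in Sham against 18.8 to 22.4 CPM in SNI overlapped. Ift57, which connects IFT-B to kinesin-2 and whose promoter carries 2 X-box matches, had 51.7 to 56.0 CPM in Sham against 44.2 to 54.0 CPM in SNI. Ift172, the large subunit at the train's tip where it turns around, was among the steadiest, with 53.7 ± 2.54 and 52.1 ± 1.69 CPM (SD, n = 4 per group). Ift20, which also works at the Golgi, had a log2 fold change of 0.02 with a 95% interval from -0.17 to 0.20. Traf3ip1 (IFT54), Ift46, Ift52 and Ift80 had -0.13, 0.08, 0.11 and 0.12.

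The IFT-A complex, which returns proteins to the cell body and brings membrane proteins in, gave 5 positive estimates and 1 negative, with a median of 0.05. The negative one was Ift122, a core subunit with the smallest p of the complex. It had 31.5, 36.8, 37.8 and 38.6 CPM in Sham against 35.6, 30.0, 29.3 and 31.7 CPM in SNI. Sham replicate 1 and SNI replicate 1 went against the other libraries, so the groups overlapped. The estimate was -0.19 ± 0.095 (SE, edgeR adjusted p = 0.258). Ift43, the smallest subunit, had 8.35 ± 0.686 CPM in Sham against 9.74 ± 0.915 CPM in SNI (SD, n = 4 per group), with an estimate of 0.22 and an interval from -0.06 to 0.51. Wdr35, Wdr19, Ift140 and Ttc21b, the other subunits, had 0.05, 0.04, 0.05 and 0.09. Wdr35 was unusually even in Sham, at 46.1 to 47.4 CPM, and ranged from 43.1 to 51.8 CPM in SNI.

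The BBSome gave 5 positive and 2 negative estimates among the 7 subunits matched, with a median of 0.15. Bbs2, which with Bbs7 forms the head of the coat, had the smallest p of all 43 genes. Its levels were 23.5, 24.4, 18.6 and 20.8 CPM in Sham against 25.8, 28.7, 27.4 and 26.9 CPM in SNI. Every SNI library lay above every Sham library, with the closest pair 24.4 and 25.8 CPM. Means were 21.9 ± 2.64 and 27.2 ± 1.20 CPM (SD, n = 4 per group), or a log2 fold change of 0.32 ± 0.102 (SE), and the edgeR adjusted p of 0.0857 did not pass. Over 17 other settings the estimate ran from 0.25 to 0.37 and the adjusted p from 0.0532 to 0.259. Bbs2 lies on chromosome 8 from 94067954 to 94098928 (GRCm38), and its exons overlap no other annotated gene.

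The other BBSome subunits did not share the separation of Bbs2. Bbs7, the partner of Bbs2, had 15.4 ± 1.64 CPM in Sham against 17.7 ± 1.30 CPM in SNI (SD, n = 4 per group), with an estimate of 0.21 and an interval from -0.03 to 0.45. Bbs9 and Bbs5 had 0.16 and 0.15. Bbs1, the subunit that contacts the GTPase Arl6, had -0.13, with 43.4 to 51.2 CPM in Sham against 39.2 to 45.9 CPM in SNI. Bbs4 and Ttc8 (BBS8), the remaining subunits among the members, had 0.05 and -0.06. Bbip1, a BBSome subunit whose symbol was not matched, had 0.03. The difference between Bbs2 and the other subunits was not tested.

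Bbs10 and Bbs12, chaperonin-like factors that help the BBSome assemble, were the 2 scarcest members. Bbs12 had 4.003, 5.51, 3.92 and 4.53 CPM in Sham against 3.72, 3.57, 2.40 and 4.22 CPM in SNI, from 36 to 83 reads a library. SNI replicate 3 was the lowest and SNI replicate 4 lay inside the Sham range. Its log2 fold change of -0.37 ± 0.217 (SE) had an edgeR adjusted p of 0.356. Bbs10 had 5.24 ± 0.750 CPM in Sham against 4.30 ± 0.598 CPM in SNI (SD, n = 4 per group), an estimate of -0.28. The 95% intervals ran from -0.83 to 0.10 for Bbs12 and from -0.67 to 0.11 for Bbs10, so they include both no change and a moderate decrease.

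The small GTPases had positive estimates that did not pass. Arl13b, a marker of cilia that activates Arl3 and holds lipid phosphatase in the cilium, had 9.84, 7.17, 8.97 and 10.1 CPM in Sham against 7.75, 10.6, 12.3 and 10.8 CPM in SNI. SNI replicate 1 lay below 3 Sham libraries and the other SNI libraries above all of them. The log2 fold change was 0.20 ± 0.161 (SE, edgeR adjusted p = 0.502). Arl6 (BBS3), which recruits the BBSome to membranes, had 32.5 ± 3.82 and 34.5 ± 3.38 CPM (SD, n = 4 per group). Arl3, which releases lipidated cargo inside the cilium, had 109 to 118 CPM in Sham and, in SNI, 148 CPM in replicate 2 against 104 to 116 CPM in the others. Its estimate of 0.07 became -0.05 without SNI replicate 2.

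All 4 kinesin-2 subunits had lower means in SNI, by 0.14 to 0.31 on the log2 scale, and none passed. Kif3c, a motor subunit enriched in neurons that pairs with Kif3a in place of Kif3b, had the smallest p. Its levels were 170.0, 165, 204 and 197 CPM in Sham against 175, 131, 132 and 156 CPM in SNI. SNI replicate 1 lay inside the Sham range and the other SNI libraries lay below it. Means were 184 ± 19.6 and 148 ± 21.1 CPM (SD, n = 4 per group), or a log2 fold change of -0.31 ± 0.104 (SE, edgeR adjusted p = 0.0989). Without SNI replicate 1 the log2 fold change was -0.40 and the adjusted p 0.0331, the only call of a member in the 17 other settings, where 6.12% of genes passed. Genes on the opposite strand, among them 1110002L01Rik, cover up to 43.3% of the exon length of Kif3c. The count of Kif3c is thus uncertain if strand was not used.

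Kif3a, the motor subunit common to both pairs, had 115 ± 10.4 CPM in Sham against 104 ± 12.9 CPM in SNI (SD, n = 4 per group), an estimate of -0.15. Kif3b had 62.7, 71.5, 84.7 and 87.7 CPM in Sham against 75.3, 64.7, 63.3 and 67.2 CPM in SNI, an estimate of -0.18. Its Sham libraries differed from each other by more than the group means did. Kifap3, the cargo adaptor of the motor, had 336 to 384 CPM in Sham against 278 to 359 CPM in SNI, an estimate of -0.14. Averaged as centred log2 CPM, the 4 subunits were highest in Sham replicates 3 and 4 (0.25 and 0.18) and lowest in SNI replicate 3 (-0.28). Excitatory neuron markers were highest in Sham replicate 3 (0.21) and lowest in SNI replicates 2 and 3 (-0.29 and -0.25). The 2 sets differed in other libraries. Sham replicate 4 had the lowest Sham value of the markers (0.09), and SNI replicate 2 had a kinesin-2 value of only -0.08. Sham replicate 1 had 0.15 for the markers and -0.04 for kinesin-2. Kinesin-2 also moves cargo in axons and dendrites outside the cilium. The part of excitatory neuron markers in the kinesin-2 values was not tested.

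The dynein-2 subunits, the return motor, had higher means in SNI and did not pass. Dync2h1, the heavy chain that holds the motor domain, had 30.1, 33.5, 29.4 and 31.1 CPM in Sham against 31.1, 36.2, 35.5 and 36.5 CPM in SNI. SNI replicate 1 fell among the Sham values and the other SNI libraries lay above them. The estimate was 0.17 ± 0.088 (SE, edgeR adjusted p = 0.288). Dync2li1, the light intermediate chain, had 16.4 ± 1.17 and 18.5 ± 1.02 CPM (SD, n = 4 per group) and also an estimate of 0.17. The mean of both as centred log2 CPM ran from -0.13 to -0.04 in Sham and from -0.01 to 0.14 in SNI. These means did not overlap, although each gene alone did, and the groups were separate for 12.7% of all tested genes. SNI replicate 1 was the lowest SNI library. Motile cilium and ependymal markers were likewise lowest in SNI replicate 1 among the SNI libraries, at -0.09. They had 0.30 to 0.57 in the other SNI libraries and -0.40 to -0.23 in Sham. SNI replicate 2 had the highest marker value (0.57) but a dynein-2 value of 0.06, below the 0.14 of SNI replicates 3 and 4. The part of these markers in the dynein-2 values was not tested.

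**Figure D2:**
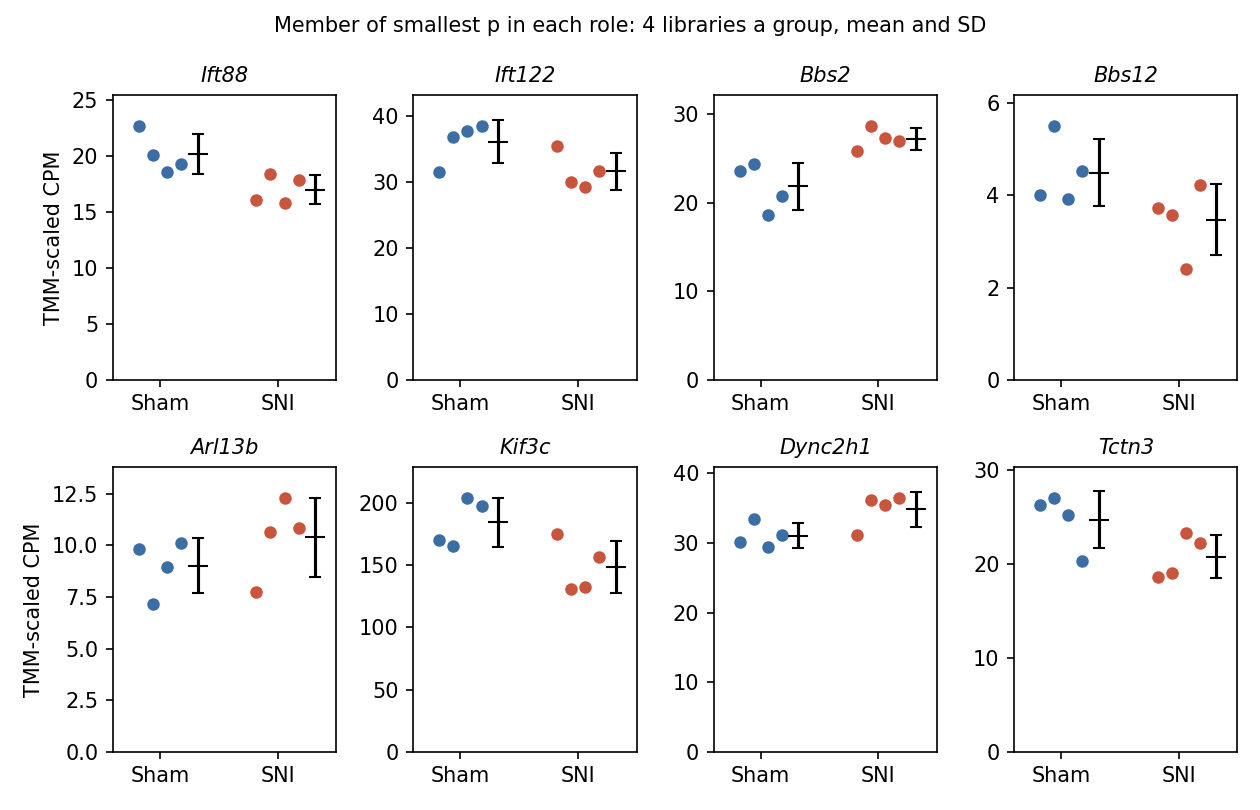
TMM-scaled CPM in each of the 4 Sham and 4 SNI libraries (points, replicates 1 to 4 from left to right) for the gene of smallest p in each role, with the mean and SD beside them, on axes that start at 0. The groups are separate for Bbs2 and Ift88 and overlap for the other 6 genes.

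The transition zone genes varied more among Sham libraries than between the groups. Averaged as centred log2 CPM, the 6 genes were at 0.20 and 0.19 in Sham replicates 1 and 2, at -0.20 and -0.14 in Sham replicates 3 and 4, and between -0.06 and 0.04 in SNI. Tctn3, a tectonic membrane protein of the gate, had the smallest p, with 26.3, 27.1, 25.3 and 20.3 CPM in Sham against 18.6, 19.1, 23.3 and 22.2 CPM in SNI. Sham replicate 4 fell among the SNI values. Its log2 fold change of -0.25 ± 0.115 (SE) had an edgeR adjusted p of 0.227. Tctn1, its relative, had 12.9 ± 2.03 and 11.0 ± 0.979 CPM (SD, n = 4 per group), an estimate of -0.22. The exons of Tctn1 share up to 25.5% of their length with other genes.

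The membrane proteins Tmem231, Tmem67, Tmem237 and Tmem216, which sit in the same gate, had estimates of 0.01, 0.02, 0.06 and 0.15. Tmem231 showed the split among Sham libraries most plainly, at 15.5 and 15.4 CPM in replicates 1 and 2 and 10.4 and 10.2 CPM in replicates 3 and 4. In SNI it had 11.3 to 12.3 CPM in replicates 1 to 3 and 16.6 CPM in replicate 4. Tmem67, a receptor-like protein, had 13.5 CPM in Sham replicate 1 and 9.23 to 11.0 CPM in the other Sham libraries. Tmem237 was even in SNI, at 25.4 to 26.2 CPM, and ranged from 22.4 to 27.6 CPM in Sham.

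**Figure D3:**
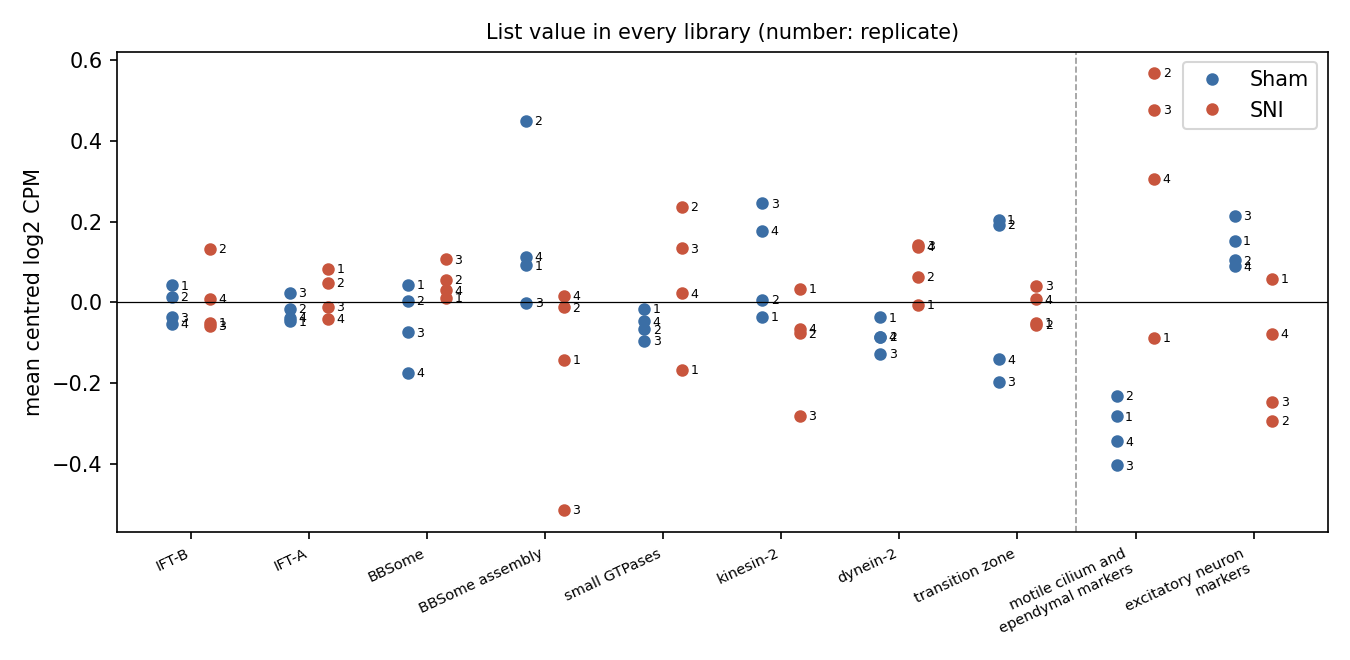
Mean centred log2 CPM of each role's genes in every library (blue, Sham; red, SNI; the number is the replicate), with motile cilium and ependymal markers and excitatory neuron markers to the right of the dashed line. IFT-B and IFT-A values overlap between groups, and the Sham values of the transition zone split into 2 pairs. The dynein-2 means do not overlap, although each dynein-2 gene alone does.

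Levels per exon length, which allow subunits to be compared, spread widely even within a complex. In CPM per kilobase of merged exon in Sham, Kifap3 had the highest level of the 43 genes, 89.6 ± 5.18, and Ttc21b the lowest, 1.24 ± 0.0522 (SD, n = 4), a ratio of 72.4. Within kinesin-2, Kif3a stood at 32.2 ± 2.90, Kif3c at 24.9 ± 2.64 and Kif3b at 13.6 ± 2.07. Kif3c thus exceeded Kif3b, its alternative partner for Kif3a, beyond the spread of the libraries, although its count is uncertain for the reason given above. In SNI the same order held, with 29.01 ± 3.61, 20.05 ± 2.86 and 12.005 ± 0.956 CPM per kilobase.

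IFT-B subunits, which assemble into one complex, ranged from 1.92 (Ift80) to 40.2 (Ift20) CPM per kilobase in Sham, a ratio of 20.9. IFT-A ranged from 1.24 (Ttc21b) to 6.39 (Wdr35), and its median of 3.19 lay below the 8.11 of IFT-B. Over the matched genes, which leave out Bbip1, the BBSome was the most even complex with more than 2 members. It ran from 2.85 (Bbs7) to 8.19 (Bbs4), a ratio of 2.87. Neighbours in that order, such as Bbs5, Bbs2 and Bbs1 (6.90 ± 0.691, 6.60 ± 0.797 and 6.23 ± 0.483 in Sham, SD, n = 4 per group), did not differ beyond their spread. In dynein-2, Dync2li1 had 8.78 ± 0.627 and Dync2h1 1.90 ± 0.109 CPM per kilobase. Merged exon length counts every annotated exon of GENCODE M21, so a gene with long unused exons appears lower.

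**Figure D4:**
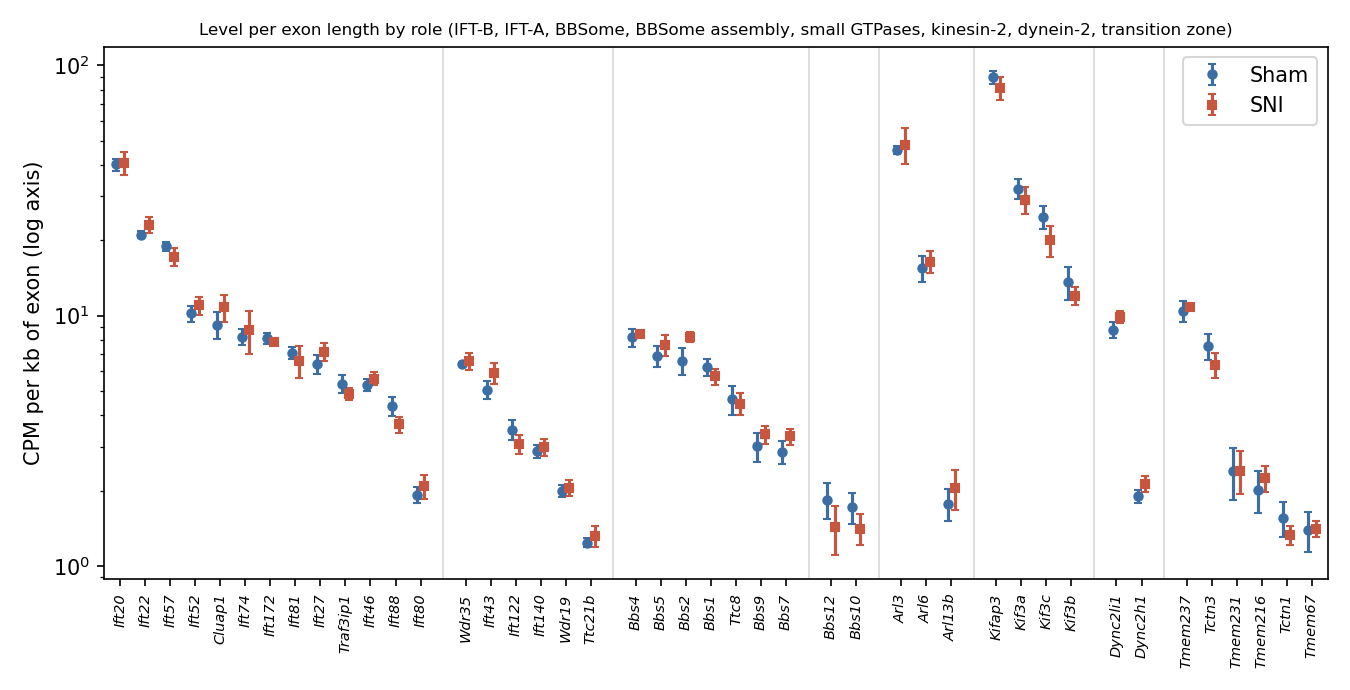
CPM per kilobase of merged exon on a log axis for each gene, with mean and SD of 4 Sham libraries (blue circles) and 4 SNI libraries (red squares), separated by role in the order of the title. Levels run from 1.24 for Ttc21b to 89.6 for Kifap3 in Sham, and Sham and SNI lie close together within each gene.

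Genes that work with this machinery were read from lists of related functions. Of 18 tested genes from a list of other IFT, BBSome and motor genes 0 rose and 1 fell, with a median log2 fold change of -0.01. Among all tested genes 2.15% were higher and 2.87% lower. The 1 that fell was Lztfl1, which regulates how the BBSome leaves the cilium. It had 48.3, 48.3, 45.4 and 40.2 CPM in Sham against 26.0, 30.7, 25.2 and 41.2 CPM in SNI, where replicate 4 lay inside the Sham range. Its log2 fold change was -0.56 ± 0.135 (SE, edgeR adjusted p = 0.0297), and the call ended without any of 6 of the 8 libraries in turn, as well as with limma and with the replicate number as a block, with adjusted p of up to 0.0938 (without SNI replicate 3).

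Of 20 other transition zone genes 1 rose and 0 fell, against 2.15% of all tested genes higher, with a median of 0.03. Ahi1, a Joubert syndrome gene strongly expressed in neurons, had 199, 195, 175 and 149.7 CPM in Sham against 225, 253, 264 and 234 CPM in SNI. The log2 difference was 0.44 ± 0.095 (SE, edgeR adjusted p = 0.0157). The call ended without Sham replicate 3 (0.0538), without SNI replicate 3 (0.0541) and without SNI replicates 2 and 4 (0.0554). Of 19 centriole and basal body genes 0 passed. Those of smallest p were Cep97 (log2 fold change 0.30) and Ccp110 (0.27), which form the cap that is removed before a cilium grows.

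Of 26 genes of the ciliary membrane and its cargo 1 fell and 0 rose, with a median of 0.07. Among all tested genes 2.87% were lower. Sstr3, the somatostatin receptor carried by neuronal cilia, had 38.8, 37.4, 46.3 and 41.6 CPM in Sham against 31.4, 26.5, 25.5 and 28.3 CPM in SNI, with no overlap. Its log2 fold change was -0.56 ± 0.096 (SE, edgeR adjusted p = 0.00522), and it passed in each of the 17 other settings. Adcy3, the adenylyl cyclase that marks neuronal cilia, had 33.2 ± 3.71 and 31.8 ± 6.67 CPM (SD, n = 4 per group) and did not pass (-0.06). It is named here after its values were seen.

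Of 24 Hedgehog pathway genes 4 rose and 0 fell, against 2.15% of all tested genes higher, with a median of 0.07. They were Ptch1, the receptor and a target gene (0.39), Hhip, a ligand-binding inhibitor and target gene (0.81), Gli1, a transcription factor and target gene (1.39), and Cdon, a coreceptor (0.44). Gli1 was scarce, at 0.695 to 2.78 CPM in Sham against 3.07 to 6.92 CPM in SNI. In all 4 the SNI values lay above the Sham values, with edgeR adjusted p of 0.0264, 0.0293, 0.0347 and 0.0466. With 1 library left out the log2 fold changes stayed positive, at 0.34 to 0.44 for Ptch1, 0.67 to 0.94 for Hhip, 1.119 to 1.70 for Gli1 and 0.38 to 0.49 for Cdon, while calls were lost. The count of 4 became 2 without Sham replicate 1, Sham replicate 4 or SNI replicate 2, and 0 without Sham replicates 2 or 3, SNI replicates 3 or 4, or SNI replicates 2 and 4. With the replicate number as a block it was 2.

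Motile cilium and ependymal markers, whose cilia share IFT, included 4 that rose and 0 that fell among 36 tested. Of all tested genes 2.15% were higher, and the median over the list was 0.40. The 4 were Dnah6, a motor protein of motile cilia (log2 fold change 4.08), Cfap126 (1.80) and Cfap44 (1.23), further cilium proteins, and Rarres2, the chemerin gene (1.48). Their edgeR adjusted p were 1.29e-06, 0.0222, 0.0171 and 0.0103. All 4 were scarce in Sham, with means of 0.46, 0.47, 1.91 and 1.91 CPM in the same order. The count was 2 without SNI replicate 2 or 3, 1 without SNI replicates 2 and 4, 8 without SNI replicate 1, and 7 with DESeq2. Among RFX and other ciliary transcription factors 0 of 8 passed. Foxj1, which drives motile cilia, had 3.87 ± 0.715 and 6.72 ± 2.46 CPM (SD, n = 4 per group; log2 difference 0.79, edgeR adjusted p = 0.0839), and Gmnc had -0.65.

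**Figure D5:**
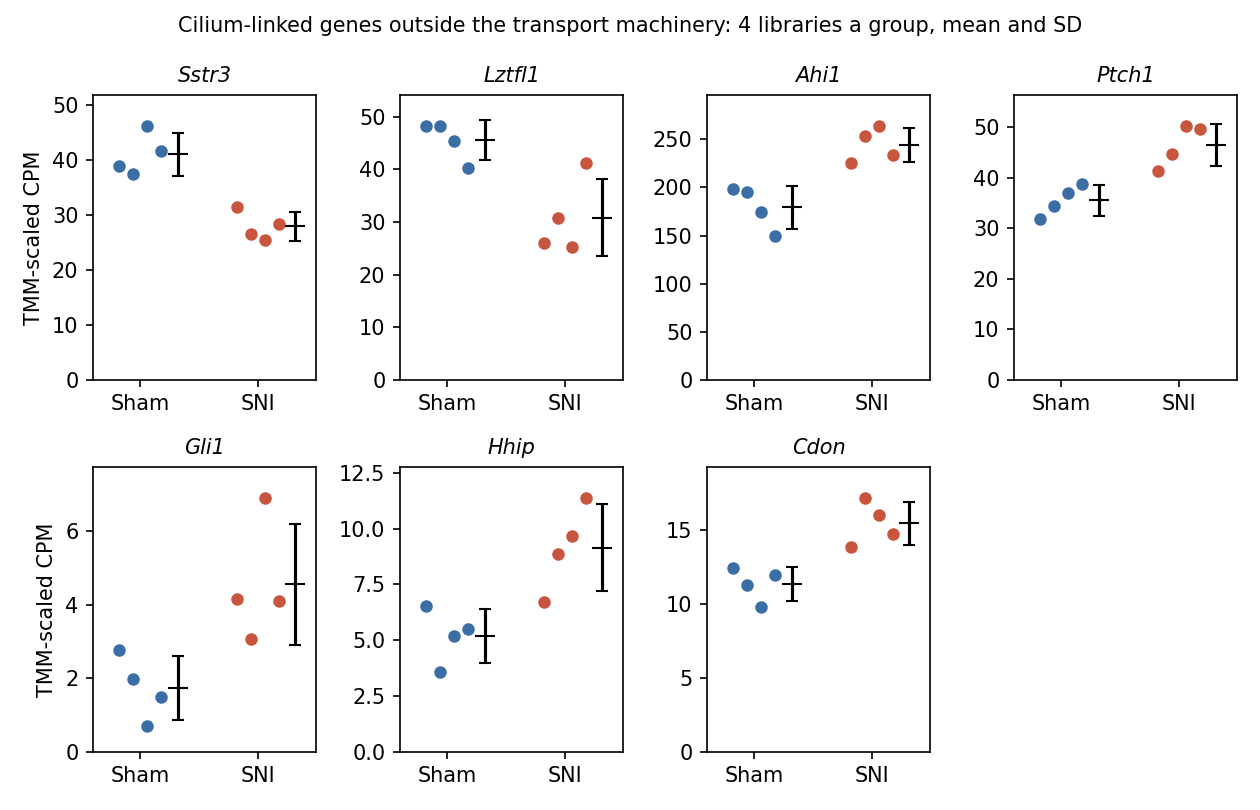
TMM-scaled CPM in each Sham and SNI library (points, replicates 1 to 4 from left to right) with mean and SD for the genes outside the transport machinery that passed in the cargo, BBSome regulator, transition zone and Hedgehog lists, on axes that start at 0. Sstr3 and Lztfl1 are lower in SNI, with 1 SNI library of Lztfl1 at 41.2 inside the Sham range, and the other 5 genes are higher.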

How the data were processed

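The deposited table holds whole-number read counts per gene, keyed by symbol, with at least 1 count in every library. Per the submitters' processing notes the authors used fastp, HISAT2 and StringTie on GRCm38. Versions, the counting step, whether it used the strand that the dUTP libraries keep, and the annotation are not given in the sources used here. Counts were tested with edgeR 4.0.16 in R 4.3.3 (filterByExpr, TMM, robust quasi-likelihood F-test, two-sided, group as the only term) over all 13911 tested genes, with Benjamini-Hochberg adjustment and a threshold of 0.05. The SE is the log2 fold change divided by the square root of F, and 95% intervals use the fit's degrees of freedom. DESeq2 1.42.0 and limma 3.58.1 served as alternatives. List values average log2 CPM, computed with a prior count of 2 and centred on the mean of each gene. Coordinates and exon lengths come from GENCODE M21 (43 of 43 symbols matched), promoters from RefSeq. Described in full are the gene of smallest p in each role and any at FDR 0.05, and in other lists up to 5 genes at FDR 0.05 or else the 2 of smallest p. Tested on simulated counts, the method made more false calls than its nominal rate and missed many of the smallest changes, so calls near the threshold are less sure and small changes among genes that did not pass are not excluded. Members and lists were chosen with earlier results of these data known. Bbs12, the scarcest member, rests on 36 to 83 reads a library, which limits its precision.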

Additional observations from a re-analysis of the deposited data

Results flagged for a closer look

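Of 86 sets of 4 values (43 genes in each group), 6 held a library that stood far from the others by Dixon's test, where chance alone flags about 1 in 20. In SNI, Ift74 had 29.9 CPM in replicate 2 against at most 21.2 in the others. Wdr19 and Tmem237 had their lowest SNI values in replicate 3, at 20.6 and 25.4 CPM against at least 23.7 and 26.1. In Sham, Arl6 had 38.2 CPM in replicate 2 against at most 31.0, Ift22 had 72.6 CPM in replicate 4 against at least 76.8, and Wdr35 had 47.4 CPM in replicate 4 against at most 46.3. The ranges of Tmem237 in SNI and Wdr35 in Sham were narrow, so these flags concern differences of about 1 CPM.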

How the results depend on the processing

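The count of 0 members passing held in 16 of 17 alternatives, and leaving out 1 library gave 0 to 1 (Kif3c, lower), with the members' median between 0.01 and 0.08. Leaving out 1 library gave 258 to 858 genes over the whole table, 90 to 405 higher and 168 to 453 lower. It gave 0 to 4 Hedgehog genes and 2 to 8 motile cilium and ependymal genes. DESeq2 called 1165 genes (511 higher, 654 lower) and 7 motile cilium and ependymal genes. Scaling by library totals gave 446 higher and 276 lower genes. Without SNI replicates 2 and 4, the libraries with most striatal marker RNA, 438 genes passed (173 higher, 265 lower), with 0 Hedgehog genes and 1 motile cilium gene, and the members' median was -0.0076. The cause of these shifts was not tested. The sign of 13 members, none larger than 0.12 in size, changed under at least 1 setting, and 30 kept theirs. Alternatives for genes outside the 43 were added after seeing the data. With the replicate number as a block, 518 genes, 0 members and 2 Hedgehog genes passed. Same-numbered libraries did not deviate together (correlations -0.03, -0.01, -0.08 and -0.15), and the other pairs ran from -0.18 to 0.22. These values cannot show whether same-numbered libraries were handled together.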
